A study of Mus musculus with 8 samples.

Results

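The aldo-keto reductases are enzymes that use NADPH to reduce aldehydes and ketones to alcohols. The family was followed here as 10 genes of the mouse (Akr1a1, Akr1b3, Akr1b7, Akr1b8, Akr1c12, Akr1c13, Akr1c14, Akr1c18, Akr1c21 and Akr7a5) out of the 25239 genes in the count table of kidneys after ischemia-reperfusion (I/R) injury. They were chosen by gene symbol from a list drawn up with the knockout-against-control contrast of these same libraries already known. Their differences between the groups are therefore a description. Where the edgeR threshold is mentioned for a member, it says on which side of it the member lay in the fit of all genes, and is no test of the member. All 10 symbols were in the table, 9 of them passed the filter on low counts, and Akr1b3 did not.

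The study compared 4 control kidneys, labelled wild type, with 4 kidneys labelled as carrying a FoxO1 knockout in myeloid cells, and asked how FoxO1 acts in macrophages during this injury. Per the labels, the deletion was made in Lyz2-CreERT2 FoxO1flox/flox mice of 8 to 10 weeks with 5 daily doses of tamoxifen at 75 mg per kg, and Lyz2 drives the recombinase in myeloid cells. The protocol on all 8 samples removes the right kidney and clamps the left renal vessels for 35 minutes, so both groups are injured. The tamoxifen text also stands on all 8; the sources used here do not give whether controls carried Cre or received the drug, nor how long after reperfusion kidneys were taken. Separate animals are named on no label, and p-values therefore measure only the spread between libraries, which may be technical. RNA was taken from collagenase-digested kidney tissue, a mix of cell types in which fewer cells of a type and less RNA per cell cannot be told apart.

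In the kidney, aldo-keto reductases are best known from the proximal tubule, where they clear reactive aldehydes and sugars, and from the medulla, where aldose reductase makes the osmolyte sorbitol. The Akr1a and Akr1b enzymes reduce mainly aldehydes. The Akr1c enzymes act as hydroxysteroid dehydrogenases and also on prostaglandins. Several genes of the family are known targets of NRF2, the transcription factor of the oxidative stress response.

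Library totals ran from 29044405 to 35530421 counts. Of 15000 genes tested, edgeR called 967 higher and 942 lower in the knockout at an adjusted p under 0.05; without control 3, knockout 2, knockout 3 or knockout 4 these counts were 520 and 538, 533 and 517, 575 and 564, and 457 and 450. Foxo1 itself stood at 33.7 ± 0.626 CPM in controls and at 41.1 ± 1.49 CPM in knockouts (CPM, counts scaled to a common library total; SD, n = 4 each; edgeR adjusted p = 0.0647, DESeq2 adjusted p = 0.00611), a level of all kidney cells that does not check the deletion in myeloid cells. Control 1 and knockout 3 stood apart in the myeloid gene Lyz2, with 81 and 13 counts against 844 to 1610 in the other libraries. Of 11 macrophage markers measured, 0 were called higher and 2 lower, 18.2% against 12.7% of all genes tested. Their median log2 fold change was 0.17, on the side of higher in the knockout. Their summed level was 321 to 431 CPM in controls and 244 to 403 CPM in knockouts. The markers that passed were Cd14 (log2 fold change -1.82, adjusted p = 0.00120) and Itgam (-1.58, adjusted p = 0.0384). Itgam stood at -0.86 without control 1 and lost its call without any 1 of the 4 knockouts, and 1 marker was called higher without control 1 or control 2. With control 1 and knockout 3 both left out, the log2 fold changes of Akr1c14, Akr1c18, Akr1c21 and Akr1b8 were 3.33, 4.54, 1.56 and -2.04. All 8 libraries carried RNA of the Y chromosome: Ddx3y had 322 to 739 counts and Xist had 0 to 8.

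The upstream sequences of the 4 members whose groups did not overlap are shown first, because the results turn on them. Each line holds the 250 bases before the transcription start, 5′ to 3′ in the direction of the gene, from RefSeq on build GRCm38.p6. RefSeq windows were matched by symbol for 9 of the 10 members. Capitals mark GTAAACA or its reverse complement TGTTTAC, the core bound by forkhead factors, FoxO proteins among them. Akr1c14 lies on the plus strand at chr13:4059341-4059590, Akr1c18 on the minus strand at chr13:4150647-4150896, Akr1c21 on the plus strand at chr13:4573825-4574074 and Akr1b8 on the plus strand at chr6:34353896-34354145.
Akr1c14: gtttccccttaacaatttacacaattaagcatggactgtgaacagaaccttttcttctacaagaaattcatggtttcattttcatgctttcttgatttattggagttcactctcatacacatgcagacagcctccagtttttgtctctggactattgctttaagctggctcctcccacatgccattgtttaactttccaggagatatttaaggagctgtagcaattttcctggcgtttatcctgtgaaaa
Akr1c18: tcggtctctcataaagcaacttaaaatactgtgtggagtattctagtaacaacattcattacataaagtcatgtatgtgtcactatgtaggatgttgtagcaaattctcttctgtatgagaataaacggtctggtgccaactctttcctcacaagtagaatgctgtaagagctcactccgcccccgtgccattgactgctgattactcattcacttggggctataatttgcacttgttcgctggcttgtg
Akr1c21: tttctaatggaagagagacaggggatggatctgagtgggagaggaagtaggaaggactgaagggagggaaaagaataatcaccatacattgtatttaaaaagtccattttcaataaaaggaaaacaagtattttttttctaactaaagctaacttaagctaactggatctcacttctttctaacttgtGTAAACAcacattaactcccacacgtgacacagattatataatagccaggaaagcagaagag
Akr1b8: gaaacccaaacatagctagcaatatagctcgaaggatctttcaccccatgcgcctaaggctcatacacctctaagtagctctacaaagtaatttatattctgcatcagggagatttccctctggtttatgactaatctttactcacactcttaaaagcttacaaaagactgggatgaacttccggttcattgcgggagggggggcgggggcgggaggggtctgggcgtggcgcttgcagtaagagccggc

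The core was in the 300-base RefSeq windows (250 bases before to 50 after the start) of 4 of the 9 members, Akr1c21, Akr1c12, Akr1c13 and Akr1b7, against 3.65% of all 32851 windows, searched on both strands. The match began 62 bases before the start in Akr1c21, 25 in Akr1c12, 28 in Akr1c13 and 143 in Akr1b7. Akr1c14, Akr1c18 and Akr1b8 had groups that did not overlap and held no match. Of the members with a match only Akr1c21 had such groups, and 21.7% of all genes tested had them. The stretches around the match in the other members are shown to compare them, from build GRCm38.p6: Akr1c12 at chr13:4279400-4279444 on the minus strand, Akr1c13 at chr13:4191139-4191185 on the plus strand and Akr1b7 at chr6:34412199-34412245 on the plus strand, with the core in capitals.
Akr1c12: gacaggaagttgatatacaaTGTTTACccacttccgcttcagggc
Akr1c13: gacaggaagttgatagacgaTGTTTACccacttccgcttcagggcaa
Akr1b7: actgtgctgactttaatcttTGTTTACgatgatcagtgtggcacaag

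The upstream sequences of Akr1c12 and Akr1c13 were 92.5% identical over their 250 bases, the match included. Between Akr1c14 and Akr1c18, which had the largest differences of the members, the upstream sequences were 52.1% identical. The antioxidant response element core TGACNNNGC, through which NRF2 acts, was in the windows of 0 of 9 members and in 12.4% of all windows. The core TGTTCT of the androgen and glucocorticoid receptors was in the window of Akr1b7 alone and in 19.0% of all windows. None of these motifs contains another, and a match says only that the letters are there.

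Close copies within the family bear on how far each count can be trusted. The coding sequences of Akr1c12 and Akr1c13 were 96.2% identical, and 28.6% of the 50-base windows of each transcript were found in the other. Akr1c14, Akr1c18 and Akr1c21 were farther from every other gene of the family: their closest relatives shared 76.7%, 77.2% and 79.2% of coding bases. Of their 50-base windows, 0%, 0.608% and 0% occurred in a transcript of another gene. Akr1b8 shared 3.21% of its windows and Akr1b7 2.52%. Akr1b3 shared 59.9%, mostly with the predicted gene Gm6644 (56.2%).

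Akr1c14, Akr1c18 and Akr1c21, all steroid dehydrogenases, were the members that stood higher in every knockout library than in any control, and Akr1b8 was the member that stood lower. These 4 also lay past the edgeR threshold, among 9 members in the fit, where 12.7% of all genes tested passed it (6.45% higher and 6.28% lower) and 21.7% had groups that did not overlap. Since the members were listed with this contrast known, nothing is read from that count. The other 5 tested members had overlapping groups. In the values that follow, the libraries of a group are listed in the order 1 to 4.

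**Figure D1:**
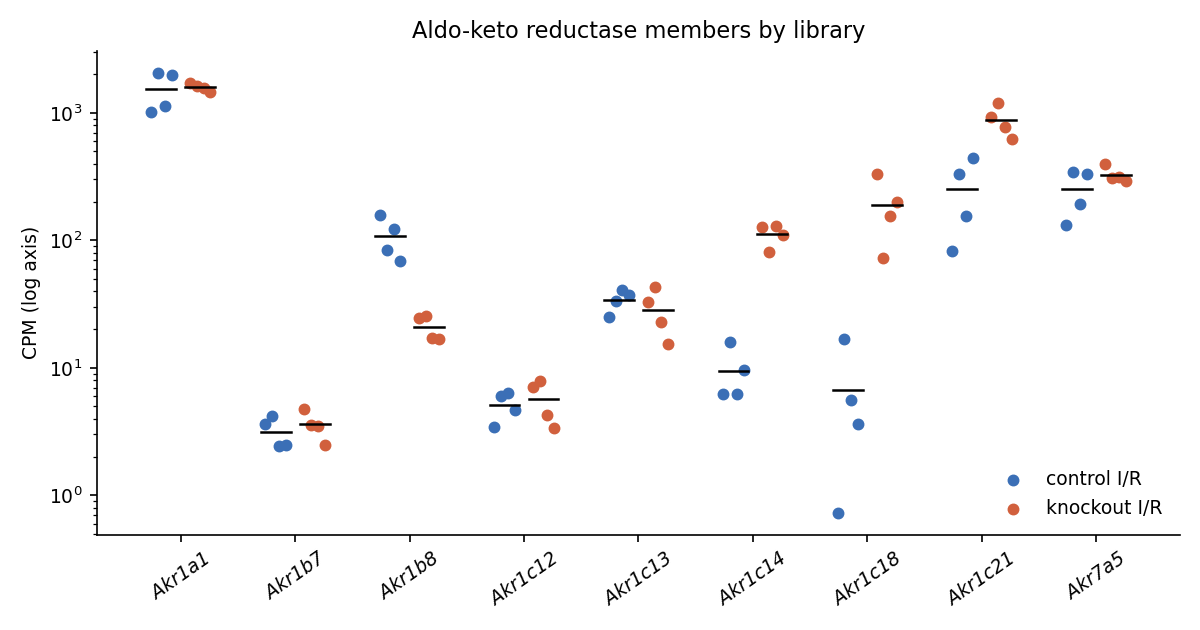
Level of each of the 9 tested members in CPM (log axis), 1 point per library, with control I/R in blue, knockout I/R in orange and a black bar at each group mean (n = 4 each). The groups separate for Akr1b8, Akr1c14, Akr1c18 and Akr1c21 and overlap for the other 5.

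Akr1c14, which acts on androgens such as dihydrotestosterone, had control levels of 6.18, 15.8, 6.23 and 9.59 CPM and knockout levels of 127, 80.7, 130 and 110 CPM. The lowest knockout was 5.10 times the highest control, so the groups lay well apart. The fitted difference was 11.8-fold (log2 fold change 3.57, SE 0.32).

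Akr1c18, which converts progesterone to a less active steroid, varied far more. The controls read 0.731, 16.8, 5.59 and 3.60 CPM and the knockouts 331, 73.0, 155 and 201 CPM. Control 1 rests on 26 counts. The highest control was 23.0 times the lowest and the highest knockout 4.53 times the lowest, yet the lowest knockout was still 4.35 times the highest control. The fitted difference was 28.5-fold (log2 fold change 4.83, SE 0.81). Control 2 weighed on its size: without it the log2 fold change was 5.84.

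Akr1c21, an abundant kidney enzyme that makes epitestosterone, had the highest level of the Akr1c genes per length in both groups. The controls read 81.9, 332, 156 and 441 CPM and the knockouts 921, 1195, 770 and 627 CPM. The groups came near each other, since the lowest knockout was 1.42 times the highest control. The fitted difference was 3.48-fold (log2 fold change 1.80, SE 0.45). It no longer lay past the edgeR threshold without control 3 or without any 1 of the 4 knockouts, where the log2 fold change ran from 1.62 to 1.93, nor with the replicate block (2.04).

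Akr1b8, which reduces aldehydes and was first known as a gene induced by a fibroblast growth factor, went the other way. The controls read 159, 83.4, 123 and 68.8 CPM and the knockouts 24.4, 25.7, 17.3 and 16.7 CPM. The lowest control was 2.68 times the highest knockout. The fitted difference was 5.17-fold lower (log2 fold change -2.37, SE 0.27).

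Akr1a1, the aldehyde reductase that also serves ascorbate synthesis in mice, was the most abundant gene of the family per length in both groups. The controls read 1021, 2061, 1135 and 1962 CPM and the knockouts 1704, 1617, 1560 and 1466 CPM. All 4 knockouts lay between the lower and the higher pair of controls. Group means of 1545 ± 543 and 1587 ± 99.7 CPM (SD, n = 4 each) gave a log2 fold change of 0.04 (SE 0.23), whose sign turned without control 1 (-0.12) or control 3 (-0.08).

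Akr7a5, an aldehyde reductase of the AKR7 branch that acts on aflatoxin aldehydes, repeated that pattern within the controls. Its control levels were 132, 346, 194 and 334 CPM, and its knockout levels 396, 307, 311 and 293 CPM. Its log2 fold change was 0.38 (SE 0.28), and the groups overlapped.

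The near-identical pair Akr1c12 and Akr1c13 showed no separation. Akr1c13 ranged from 25.2 to 40.5 CPM in controls and from 15.5 to 42.8 CPM in knockouts, with a log2 fold change of -0.26 (SE 0.28). Akr1c12 ranged from 3.43 to 6.32 CPM in controls and from 3.38 to 7.90 CPM in knockouts (0.14, SE 0.31), and its sign turned without control 1 (-0.01) or knockout 2 (-0.062). Their split of reads is uncertain, given the sequence they share. Akr1b7, a prostaglandin F synthase known from the adrenal cortex and the vas deferens, was low, at 2.41 to 4.16 CPM in controls and 2.49 to 4.79 CPM in knockouts (0.19, SE 0.28).

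Akr1b3, aldose reductase, which turns glucose into sorbitol, was listed at 0 in 7 of the libraries and at 2 counts in knockout 2. Of its 50-base windows 59.9% were also found in transcripts of other genes, and the rest were not. The listing is not read here as the level of aldose reductase. Gm6644, which holds most of the shared windows, was itself listed at 0 in all 8 libraries. Whether the shared sequence set the listing was not tested.

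Of 10 more superfamily genes in the table, 8 were tested, of which edgeR called 2 higher and 0 lower, with a median log2 fold change of 0.81 against -0.01 for all genes tested. The background for a call in either direction was 12.7%. Akr1d1, the bile acid enzyme that reduces steroids in the 5-beta position, rose from 5.46 ± 2.03 to 19.5 ± 1.70 CPM (SD, n = 4 each; log2 fold change 1.84, SE 0.27, edgeR adjusted p = 0.00334). Its libraries ran from 2.67 to 7.29 CPM in controls and from 17.6 to 21.1 CPM in knockouts. Akr1c19 rose from 17.5 ± 3.25 to 36.4 ± 13.6 CPM (log2 fold change 1.06, SE 0.26, adjusted p = 0.0250), a call lost without control 4, knockout 1 or knockout 2 and with the replicate block (adjusted p = 0.0582, over all alternatives 0.00117 to 0.0675). The count of higher genes was 1 without knockout 1 or knockout 2.

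The remaining superfamily genes did not pass. Akr1c20, with 1.54 as its log2 fold change (SE 0.46, edgeR adjusted p = 0.0528), lay at 0.450 to 1.88 CPM in controls and 2.38 to 4.63 CPM in knockouts and passed in DESeq2, with the replicate block and without control 2. Akr1c6, closest to Akr1c20 with 92.3% identical coding bases, was below the filter at 0 to 4 counts per control and 6 to 30 per knockout. Akr1b10 (log2 fold change 0.33) and Akr1e1 (0.14), a reductase of anhydrofructose, lay closer to 0. The potassium channel beta subunits of the AKR6 branch, Kcnab1, Kcnab2 and Kcnab3, had 0.74, 0.38 and 0.87, with Kcnab3 past the threshold in DESeq2 alone. Akr1cl was listed at 0 in all libraries.

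**Figure D2:**
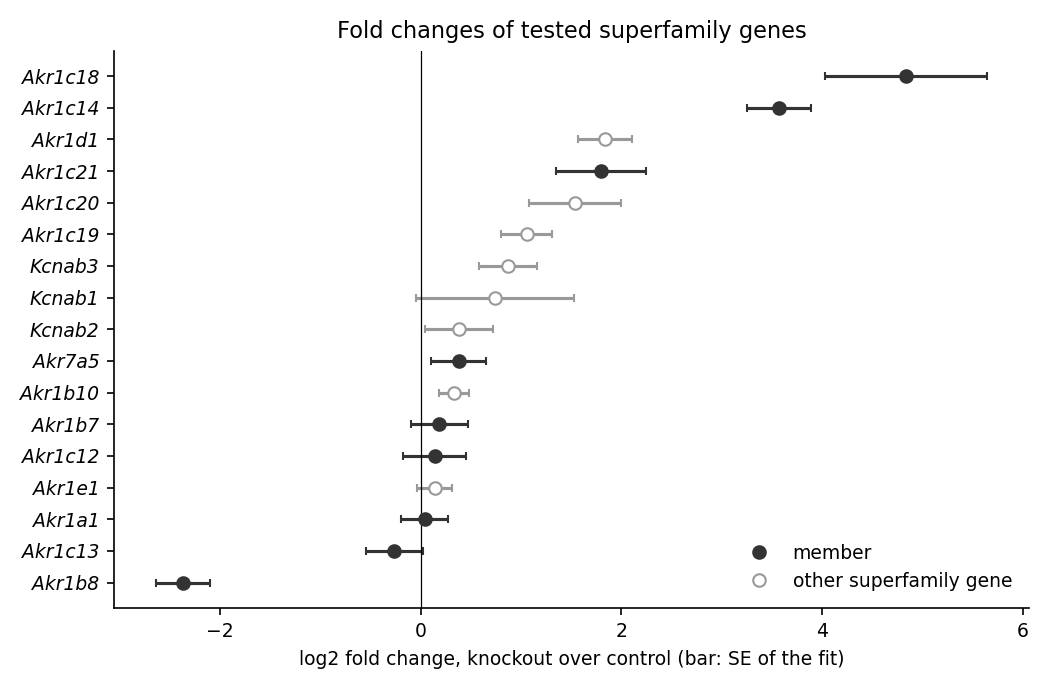
Log2 fold change of knockout over control for the 17 tested superfamily genes with the SE of the edgeR fit as bars; filled points are members and open points the other genes. Akr1b8 at -2.37 and Akr1c14 and Akr1c18 at 3.57 and 4.83 lie at the ends, and the 8 other genes lie between 0.14 and 1.84.

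The Akr1c genes lie next to each other on chromosome 13, in the order Akr1c14, Akr1c18, Akr1c13, Akr1c19, Akr1c12, Akr1c6, Akr1c20 and Akr1c21, followed by Akr1e1, per RefSeq on GRCm38.p6. All knockouts lay above all controls for 6 of these 8 Akr1c genes, a separation that 11.1% of all genes tested showed. Of the 6, Akr1c14, Akr1c18 and Akr1c21 are members chosen with this contrast known and Akr1c6 was not tested for its low counts, so nothing is read from that share. The 2 exceptions were the near-copies Akr1c13 and Akr1c12, which have Akr1c19 between them. Genes near each other also differed among the Akr1b genes on chromosome 6, in the order Akr1b3, Akr1b8, Akr1b10 and Akr1b7. Akr1b8 was lower in all knockouts. Akr1b10 next to it and Akr1b7 after that had overlapping groups, with 85.1% and 84.98% of their coding bases in common with Akr1b8. Akr1b3, on the other side of Akr1b8, was below the filter on low counts.

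**Figure D3:**
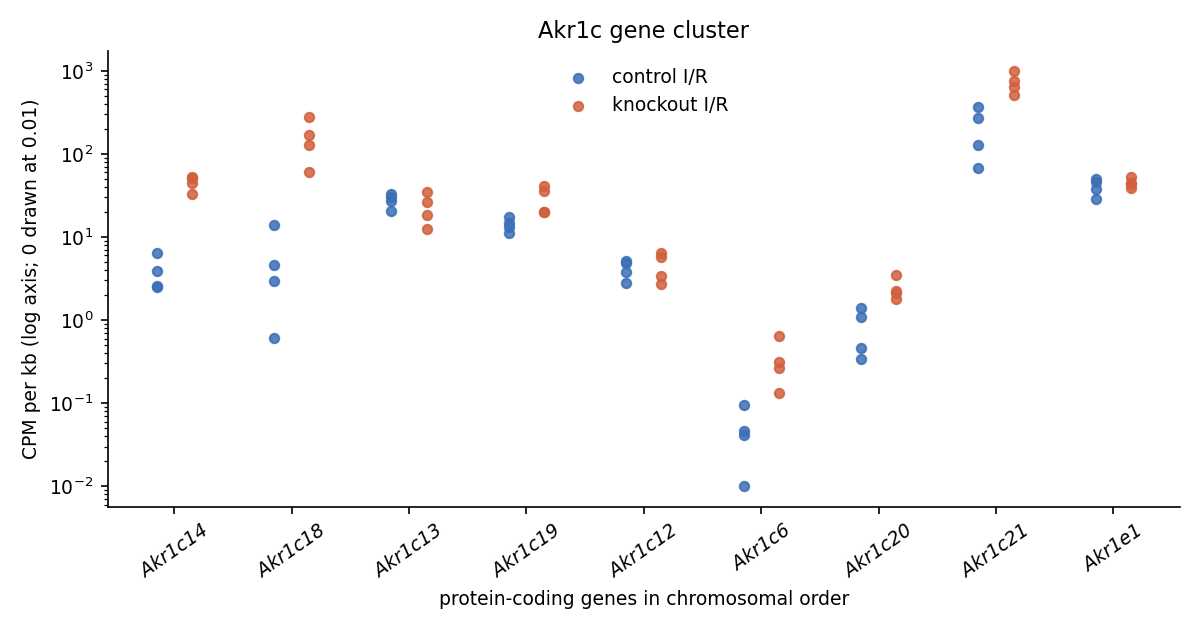
Level per length (CPM per kb, log axis, 0 drawn at 0.01) of the Akr1c genes and Akr1e1 in their order on the chromosome, 1 point per library, controls in blue and knockouts in orange. Akr1c13, Akr1c12 and Akr1e1 overlap between the groups, and Akr1c14, Akr1c18, Akr1c19, Akr1c6, Akr1c20 and Akr1c21 do not.

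Summed over the 5 Akr1c members, which removes any error in how reads were split among them, the level was 117, 404, 215 and 496 CPM in controls 1 to 4 and 1419, 1400, 1082 and 957 CPM in knockouts 1 to 4. Every knockout was above every control. The means were 308 ± 173 and 1214 ± 231 CPM (SD, n = 4 each), 3.94-fold apart. Akr1c21 made up 72.0% to 89.9% of this sum per length in controls and 67.9% to 88.0% in knockouts. Akr1c18 went from 0.648% to 4.28% of it in controls to 5.42% to 24.6% in knockouts.

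The order of levels was compared per length of transcript, as CPM per kb. In controls Akr1a1 was first at 1093 and did not overlap with the next gene, Akr1c21, at 209 (67.7 to 365). Akr1c21, Akr7a5 (153) and Akr1b8 (81.6) followed, each overlapping with its neighbour. Akr1c18 and Akr1c14 came 9th and 11th at 5.56 and 3.87, with Akr1c12 between them, and these 3 did not differ beyond their spread. In knockouts Akr1a1 (1122) and Akr1c21 (726, from 519 to 989) stood apart from each other and from the rest, and Akr7a5 (198) and Akr1c18 (158) overlapped. Akr1c14 was 5th at 45.8 and overlapped with the next gene, Akr1e1. Akr1b8 had gone from 4th to 10th place by its mean, at 15.8, where it overlapped with Akr1b10 before it.

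The make-up of the family's summed CPM per kb differed accordingly. Akr1a1 took 65.9% ± 1.95 of it in controls and 47.0% ± 3.18 in knockouts (SD, n = 4 each). Akr1c21 took 6.29% to 17.1% in controls and 25.1% to 38.0% in knockouts. Akr1c14 and Akr1c18 together took 0.291% to 0.952% and 3.61% to 12.1%, and Akr1b8 2.43% to 11.1% and 0.579% to 0.742%. The share of Akr7a5, 9.01% ± 1.07 and 8.27% ± 0.764, overlapped. A share falls when other genes of the sum rise: Akr1a1, whose own level overlapped between the groups, took a smaller share in every knockout.

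**Figure D4:**
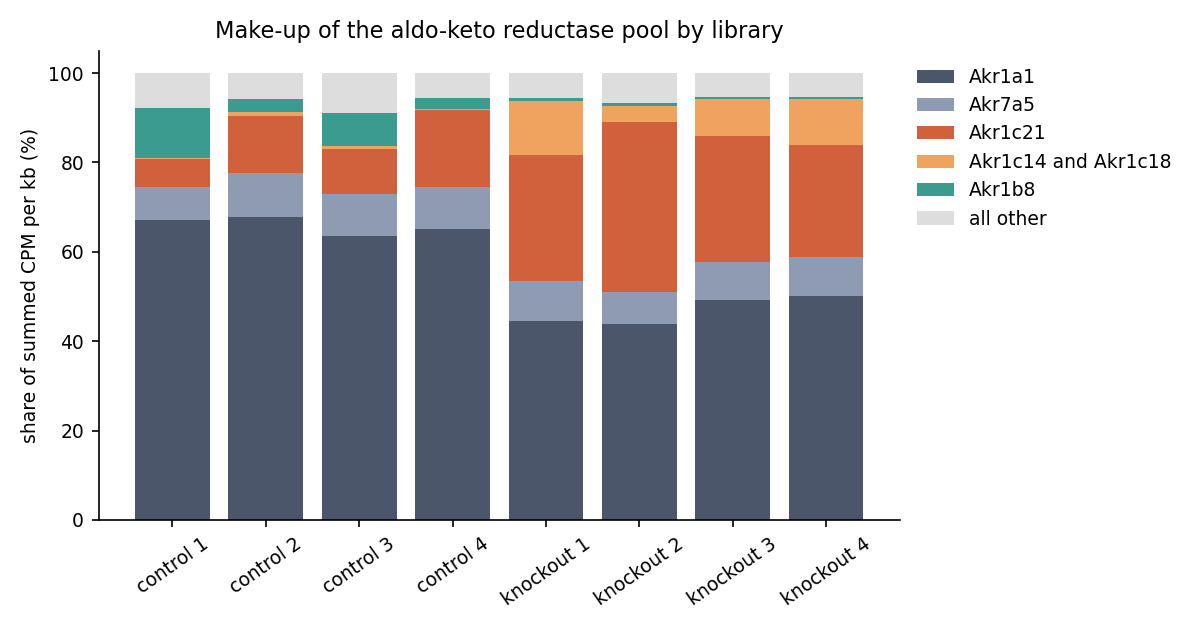
Share of the summed CPM per kb of the 20 superfamily genes in each library, in percent, stacked by gene. Akr1a1 takes 63.5% to 67.8% in the 4 controls and 43.9% to 50.2% in the 4 knockouts, and the bands of Akr1c21 and of Akr1c14 with Akr1c18 are wider in the knockouts.

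Within the controls, the most abundant members split the same way as markers of the tubule. Akr1a1, Akr7a5 and Akr1c21 were all higher in controls 2 and 4 than in controls 1 and 3. The summed level of the 17 proximal tubule markers had the same split, with 11969, 24269, 17057 and 24882 CPM in controls 1 to 4. In knockouts the sum was 25749 to 35709 CPM. Kap, an androgen-driven kidney protein gene, made up most of this sum in every library. Its levels were 7686 to 15531 CPM in controls and 14913 to 26074 CPM in knockouts, which overlap (edgeR adjusted p = 0.191). The sum thus consists mainly of Kap. Apart from Kap, the rest of the sum was larger in control 4 than in knockout 1. The sum was 24882 CPM in control 4, of which Kap was 14442, and 35709 CPM in knockout 1, of which Kap was 26074. Without Kap the groups therefore overlapped, while controls 2 and 4 stayed above controls 1 and 3. Akr1b8 was higher in controls 1 and 3 than in controls 2 and 4, and so was the summed level of the 10 injured tubule markers, at 28558, 15053, 29656 and 17582 CPM in controls 1 to 4 and 5909 to 6833 CPM in knockouts. Of the injured tubule markers 9 were called lower and 0 higher, 90% against 12.7% of all genes tested. Havcr1 and Krt8 were among those lower (log2 fold changes -2.45 and -1.76). Of the proximal tubule markers 3 were called higher and 0 lower, 17.6% against 12.7% of all genes tested. They were Slc7a13 (1.63, edgeR adjusted p = 0.00103), Aqp1 (1.85, adjusted p = 0.00393) and Lrp2 (0.99, adjusted p = 0.0224, a call lost without control 3, knockout 2, knockout 3 or knockout 4). Without control 2 the count of higher markers was 5. Both lists, and that of NRF2 genes, had been seen in earlier results of these data and are not independent support. The part of tubule cell number or injury in the members' differences was not tested.

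**Figure D5:**
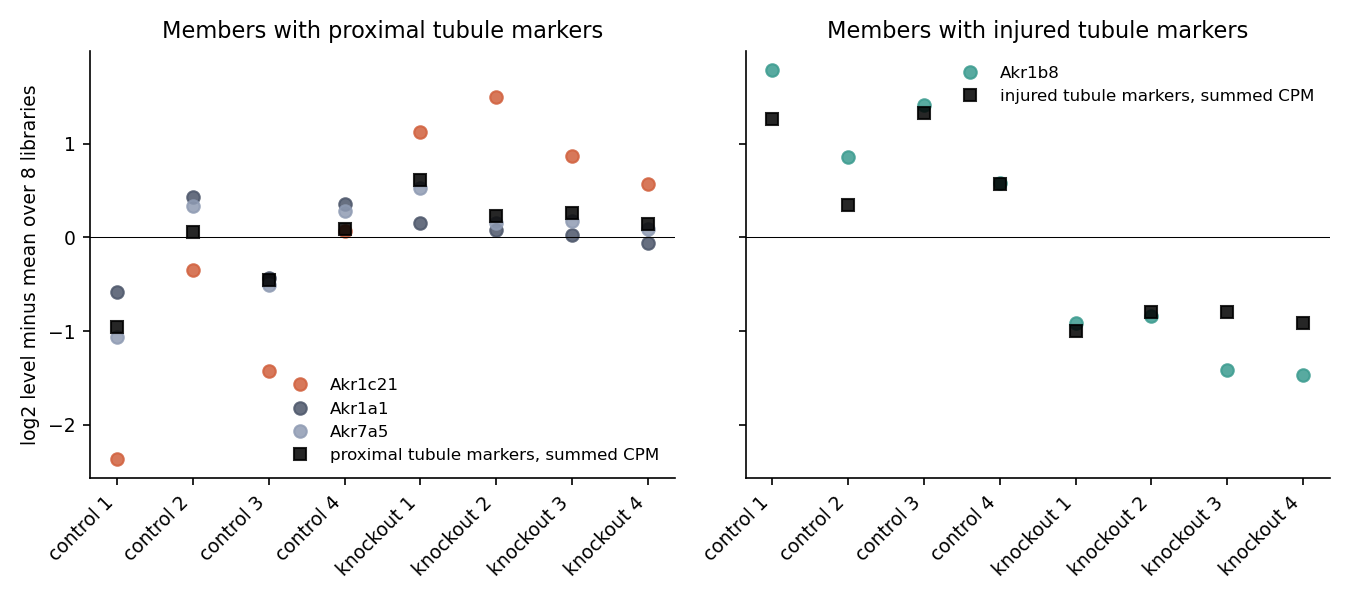
Log2 level of each library minus the mean over the 8 libraries, for Akr1c21, Akr1a1 and Akr7a5 with the summed proximal tubule markers (left) and for Akr1b8 with the summed injured tubule markers (right). Controls 1 and 3 lie below controls 2 and 4 on the left and above them on the right, and all knockouts lie below all controls on the right.

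Adrenal tissue next to the kidney also expresses Akr1b7 and Akr1c18, and 9 of its markers were looked up. Star and Mrap passed the filter on low counts and the other 7 did not, at 0 to 18 counts per library. Of the 2 measured none passed the test, with 0 called by edgeR (0 at an unadjusted p under 0.05; 1 lower without knockout 2, and 0 in DESeq2). The genes of the last steps of corticosteroid synthesis, Cyp11b1 and Cyp11b2, were listed at 0 in all 8 libraries, and Cyp11a1 had 0 to 10 counts. Star, the cholesterol carrier of steroid-making cells, had 87 to 145 counts in controls and 89 to 167 in knockouts. Mrap, an accessory protein of the corticotropin receptor, had 26 to 133 in controls and 2 to 86 in knockouts. Summed, the markers reached 4.07 to 8.60 CPM in controls and 3.23 to 7.85 CPM in knockouts, and the part of adrenal tissue in the values of Akr1c18 and Akr1b7 was not tested.

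Enzymes that work beside aldose and aldehyde reductase in the polyol and glucuronate pathways were compared over 12 measured genes. edgeR called 2 higher and 1 lower, 25% against 12.7% of all genes tested, with a median log2 fold change of 0.67. Slc2a5, the fructose transporter GLUT5, rose 5.72-fold (adjusted p = 0.00764). Miox, which opens the ring of inositol to form glucuronate, rose by 1.14 on the log2 scale (adjusted p = 0.0237, lost without control 3, knockout 2, knockout 3 or knockout 4). Ugdh, which makes UDP-glucuronate, fell 1.36-fold (adjusted p = 0.0195, lost without control 3, knockout 2 or knockout 3, and with the replicate block, 0.0820). The alternatives gave adjusted p-values up to 0.0673 for Miox and 0.0820 for Ugdh.

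Genes that share steroid or prostaglandin substrates with the Akr1c and Akr1b enzymes moved in both directions. Of 28 measured, 5 were called higher, 4 lower and 19 did not pass, so 32.1% were called against 12.7% of all genes tested. Their median log2 fold change was 0.28. Hsd11b2, which shields the mineralocorticoid receptor from glucocorticoids, rose 2.37-fold (edgeR adjusted p = 0.0119) and Hsd17b11, another hydroxysteroid dehydrogenase, 1.56-fold (adjusted p = 0.0161, lost without control 3 and with the replicate block). Srd5a1, the steroid reductase that makes dihydrotestosterone, fell 1.86-fold (adjusted p = 0.00681) and Slco2a1, a prostaglandin transporter, 1.76-fold (adjusted p = 0.00755). The count of higher genes was 10 without control 2, 2 without control 3 and 3 without knockout 2, and that of lower genes was 2 without control 2, control 4, knockout 3 or knockout 4.

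Of 33 other enzymes that clear aldehydes and carbonyls (aldehyde dehydrogenases, alcohol dehydrogenases and carbonyl reductases) 1 was called higher and 3 lower, 12.1% against 12.7% of all genes, with a median log2 fold change of 0.11. The count of higher genes was 2 without control 2 or control 4. Cbr3, a carbonyl reductase, fell 2.49-fold (edgeR adjusted p = 0.00712). Dhrs3, a retinal reductase, rose 2.49-fold (adjusted p = 0.0337), and Adh7 and Dhrs7 fell 2.07-fold and 1.54-fold (adjusted p = 0.0346 and 0.0305). These 3 calls were each lost without control 3, knockout 3 or knockout 4, and with the replicate block. They were also lost without other single libraries (Dhrs3 without knockout 1 or knockout 2, Adh7 without control 1, control 4 or knockout 1, Dhrs7 without control 1 or control 4), with adjusted p-values up to 0.101.

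NRF2 and its targets, the group to which Akr1b8 is often counted, were compared next. Of 20 measured, edgeR called 11 lower and 0 higher, 55% against 12.7% of all genes tested. Their median log2 fold change was -0.63. The heme oxygenase gene Hmox1 fell 4.81-fold (adjusted p = 1.77e-04), and the pentose phosphate enzymes Pgd and Taldo1 fell 1.96-fold and 1.92-fold (adjusted p = 0.00157 each). Blvrb, a biliverdin reductase, fell 2.17-fold (adjusted p = 0.00892). The summed level was 6663, 6421, 6587 and 6674 CPM in controls 1 to 4 and 3804 to 4271 CPM in knockouts. The part of NRF2 in the difference of Akr1b8 was not tested. The count of lower genes was 7 without knockout 2 and 6 without knockout 3 or knockout 4.

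The genes with profiles most like those of Akr1c14 and Akr1c18 were found by the root mean square difference of log2 CPM over the 8 libraries, each gene centred on its own mean, among 12472 genes whose log2 CPM averaged 1 or more. Genes so picked share the group difference of Akr1c14 or Akr1c18, members chosen with the contrast known. Their own differences between the groups follow from that choice, and their values and calls are a description. Nearest to Akr1c14 were Tgfb2 (0.459), Ccl28 (0.501), Egf (0.525), Slc12a5 (0.536) and Itih5 (0.539). Egf, which encodes epidermal growth factor and is made in the distal nephron, went from 44.5 ± 25.3 to 309 ± 31.1 CPM (SD, n = 4 each). Nearest to Akr1c18 were Nccrp1 (0.789), Uroc1 (0.861), A4gnt (0.898), Sec14l3 (0.989) and Slc7a12 (1.05), so even the closest gene lay farther from Akr1c18 than all 5 did from Akr1c14. Between Akr1c14 and Akr1c18 the difference was 1.28, and the closest members to each other were Akr1a1 and Akr7a5 (0.234). Without control 2 the log2 fold changes of Nccrp1, A4gnt and Ccl28 were 5.09, 4.35 and 3.87, against 3.45, 3.40 and 3.07, and without control 3 that of Slc7a12 was 6.51 against 5.63. The edgeR call of Nccrp1 was lost without control 3, control 4, knockout 1, knockout 2 or knockout 4.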

How the data were processed

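The authors deposited 1 table of raw whole-number counts, genes in lines and the 8 libraries in columns, beside a gene length. Per the submitters' processing notes, HISAT2 2.2.1, Salmon 1.10.2, Trim Galore 0.6.2, FastQC and build mm39 were used; which made the counts is not given in the sources used here. Between 68.7% and 70.9% of counts from 1 to 20 were even, so both mates of a read pair may have been counted. Genes were taken by symbol, since the table's identifier column does not match its symbols. The NEBNext Ultra kit of the labels keeps no strand, so a gene and its antisense partner cannot be told apart.

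Counts were tested with edgeR 4.0.16 in R 4.3.3: filterByExpr (minimum count 10), TMM, a quasi-likelihood fit of group alone on the 8 libraries, and p-values adjusted by Benjamini-Hochberg for 15000 genes. Fold changes are fitted log2 values of knockout over control, with SE from the F statistic. CPM use TMM factors, and log2 CPM a prior count of 2. Depth was 29044405 to 35530421 counts per library; without molecular identifiers, precision from depth covers counting error only. The fit was tested on simulated data. Libraries of a group differed by far more than counting noise (mean chi-square per gene 22.4 or more).

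The members, the gene lists, the tests and the settings varied were chosen with earlier results of these data known. Named genes are the members, Foxo1, the other superfamily genes, up to 4 called genes per list by smallest p, Lyz2, Havcr1 and Xist as checks, and the 5 nearest genes to Akr1c14 and Akr1c18; others named to spell out a count or a marker were chosen after their values were seen. The names Akr1b1 and Akr7a2 of the superfamily list, synonyms of Akr1b3 and Akr7a5 in RefSeq, are not rows of the table. Coding sequences and 50-base windows came from GENCODE transcripts of GRCm38, taking for each gene the coding transcript nearest in length to the deposited one, and were aligned globally with Biopython 1.88. Protein identity had been planned and coding sequences were compared in its place. Alternatives were DESeq2 1.42.0, upper quartile factors, no filter, the replicate block, each library left out, and control 1 and knockout 3 left out together.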

Additional observations from a re-analysis of the deposited data

How the results depend on the processing

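The replicate numbers did not pair the libraries: same-numbered controls and knockouts had correlations of their deviations of -0.198, 0.0358, 0.153 and -0.161. With the replicate block, 447 genes were called higher and 418 lower; Akr1c21 (2.04) no longer lay past the threshold, polyol genes called lower were 0, steroid genes 2 higher and 2 lower, aldehyde genes 0 and 1, NRF2 genes 7 lower, tonicity genes 1 and 0, macrophage markers 1 lower and sex-biased genes 0 lower. DESeq2 called 1605 genes higher and 1504 lower, with 4 other superfamily genes higher, 6 polyol genes higher, 9 steroid genes higher, 4 aldehyde genes higher and 5 lower, 3 tonicity genes lower, 5 proximal tubule markers higher, and 1 macrophage marker higher and 4 lower. With control 1 and knockout 3 both left out, 549 genes were called higher and 496 lower, polyol genes 1 and 0, tonicity genes 1 and 0, and Akr1a1 stood at -0.11. Leaving out 1 library at a time gave 457 to 1001 genes higher and 450 to 983 lower. The ranges, higher then lower, were 2 to 3 and 1 for the members, 1 to 3 higher for other superfamily genes, 1 to 3 and 0 to 1 for polyol, 2 to 10 and 2 to 5 for steroid, 0 to 2 and 1 to 3 for aldehyde, 1 to 2 and 0 to 2 for tonicity genes, 6 to 12 lower for NRF2, 2 to 5 higher for proximal tubule, 0 to 1 lower for adrenal, 0 to 1 and 1 to 3 for macrophage, and 3 to 4 and 0 to 3 for sex-biased genes. Injured tubule markers gave 9 lower in every fit. Log2 fold changes ran from 3.41 to 3.93 for Akr1c14, 4.43 to 5.84 for Akr1c18, 1.503 to 2.21 for Akr1c21, -2.54 to -2.13 for Akr1b8, -0.12 to 0.21 for Akr1a1 (reversed without control 1, -0.12, or control 3, -0.08) and -0.06 to 0.32 for Akr1c12 (reversed without control 1, -0.01, or knockout 2, -0.062). The summed Akr1c level gave 1.71 to 2.31. Upper quartile factors and no filter turned no member's direction and moved none across the threshold. Fits without a library have fewer samples; the cause of other shifts was not tested. Akr1b3, Akr1c6 and the adrenal markers other than Star and Mrap had only 0 to 30 counts per library. Whether depth set these low counts was not tested.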

Other observations

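Genes known to differ between the kidneys of male and female mice did not move as 1 group. Of 11 measured, edgeR called 4 higher and 2 lower in the knockout, 54.5% against 12.7% of all genes tested. Among those higher in males, Slc7a13 rose 3.10-fold (adjusted p = 0.00103), while Cyp4b1 fell 1.96-fold (adjusted p = 0.0208, lost without knockout 4 and with the replicate block). Among those higher in females, Slc7a12, an amino acid transporter-family gene, went from 0.738 ± 0.713 to 37.0 ± 2.31 CPM (SD, n = 4 each; log2 fold change 5.63, 6.51 without control 3) and Prlr, the prolactin receptor gene, rose 4.39-fold (adjusted p = 0.00904). The Y-linked genes were expressed in all 8 libraries, and none of the 4 measured passed the threshold in edgeR (0 called, 1 at an unadjusted p under 0.05). The count of lower genes was 0 without knockout 4 and 1 without control 4, knockout 1 or knockout 2.

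Of the genes of the tonicity response, the osmolyte programme to which aldose reductase belongs in the renal medulla, 10 were measured. Of these, edgeR called 2 higher and 1 lower, 30% against 12.7% of all genes tested. Their median log2 fold change was -0.05. Slc6a12, the betaine transporter gene, rose from 1.30 to 5.01 CPM (log2 fold change 1.93, adjusted p = 0.00444). Slc6a6, the taurine transporter gene, rose 1.52-fold (adjusted p = 0.0215) and Zfp36l1, an RNA-binding protein gene, fell 1.97-fold (adjusted p = 0.0395). Slc6a6 lost its call without control 3, knockout 2, knockout 3 or knockout 4, and Zfp36l1 without any 1 library except control 2 or control 4 (adjusted p-values up to 0.0793 and 0.137 over all alternatives). The count of lower genes was 2 without control 2.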
